A study of Mus musculus with 12 samples.

Results

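The genes described here carry out mitochondrial fatty acid oxidation and the making of ketone bodies in liver, from the activation of a fatty acid to the release of β-hydroxybutyrate. They were taken as a list of 30 gene symbols, and each was read from the probe set of that symbol with the highest mean over the 12 arrays. In all, 28 of the 30 had a probe set with that single symbol, out of 12393 genes measured. Acsl1 and Acsl3 were not analysed here. By step, 2 measured genes activate fatty acids, 5 belong to the carnitine shuttle, 18 to oxidation and 2 to ketone body metabolism, and Ppara encodes a transcriptional regulator. The list is wider than its name. Crot, Acox2 and Hsd17b4 act in peroxisomes, and Acadsb oxidises a branched acyl-CoA made from an amino acid.

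Whole livers came from female C57BL/6 mice of 8 to 12 weeks and were hybridised to Affymetrix Mouse430A arrays, 3 arrays per group. The groups were HDAC6–/– mice, HDAC9–/– mice, wild-type mice on a high-fat diet that supplied 60% of calories as fat, begun after weaning, and wild-type mice on regular chow with 25% of calories from fat. No diet was given for the knockouts, so genotype and diet cannot be told apart where they are set against wild-type livers. How the deletions were made was not stated, and the labels do not say in words that each array is a separate mouse, so each p-value reflects the spread among these arrays, which may be technical. All values are log2 expression per probe set, where a difference of 1 is a doubling.

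Long-chain fatty acids are joined to coenzyme A, moved into mitochondria as carnitine esters, and shortened by repeated rounds of dehydrogenation, hydration, a second dehydrogenation and thiolysis. In fasted liver the acetyl-CoA so made is turned into acetoacetate and β-hydroxybutyrate, which other tissues burn. The nuclear receptor PPARα, encoded by Ppara, activates many of these genes during fasting.

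The labels and tissue were checked first. Hdac6 averaged 6.28 ± 0.198 (SD, n = 3) in the HDAC6 knockout livers and 7.91 ± 0.060 in chow livers (log2 difference -1.63, limma adjusted p = 6.79e-05). Hdac9 averaged 4.204 in the HDAC9 knockout and 4.30 in chow livers, near the chow median of 3.77 over 15 genes with no known liver expression, and so could not check its label. The 9 hepatocyte markers averaged between 11.2 and 14.2 in every group, and their array medians stayed between -0.0372 and 0.0345 of the overall mean. Transcripts of exocrine pancreas stood 3.62 above it on HDAC9 knockout replicate 2, against at most 0.10 elsewhere. Chow replicate 2 held the highest of the 12 values for 18.5% of all genes. Differences that moved by over 1.5 times without a single array of the groups compared, these 2 included, are given without it for the genes described with values. This covers the probe set used for each gene and the second set of Bdh1. Single arrays were not left out for other probe sets.

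Reference sequence upstream of 2 transcripts is shown for the gene that carried the only call, Bdh1, whose enzyme interconverts acetoacetate and β-hydroxybutyrate. The RefSeq table (GRCm38.p6) held promoters, 250 bases before to 50 after each start, for 23 of the 28 measured genes, 25 promoters in all. They were searched on both strands for the DR1 element, the form of the PPARα binding site, which is AGGTCA written 2 times in a row with 1 base of any kind between, and for a single AGGTCA, which every exact DR1 also holds. No promoter of these genes held the exact repeat, as 0.0396% of all 32851 promoters did. With at most 2 mismatches to its 12 fixed bases, 3 of the 25 promoters matched, against 3.86% of all promoters. A single AGGTCA stood in 3 of 25, against 16.3% of all promoters. A match describes these letters and is not a binding site. The 3 stretches with at most 2 mismatches follow, each 29 bases on the strand of the gene, with the matching part in capitals.
Etfa (chr9:55512300-55512328, minus strand): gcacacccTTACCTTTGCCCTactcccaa
Slc25a20 (chr9:108662134-108662162, plus strand): ctgaatgtAGGTGAAAGGTCGgcggagcc
Acox2 (chr14:8258810-8258838, minus strand): gctgtcccAGGACAGAGGTGAgtcaagag
The Bdh1 stretches are the 180 bases before each of its starts. The capitals mark a partial match with the fewest mismatches, 4 at the first start and 3 at the second. Other stretches with as few mismatches, as at the first start, are not marked.
Bdh1, first start (chr16:31422117-31422296, plus strand): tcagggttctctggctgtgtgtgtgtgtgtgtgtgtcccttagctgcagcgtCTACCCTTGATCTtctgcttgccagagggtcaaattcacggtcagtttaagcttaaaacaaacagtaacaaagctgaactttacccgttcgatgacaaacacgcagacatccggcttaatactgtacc
Bdh1, second start (chr16:31428573-31428752, plus strand): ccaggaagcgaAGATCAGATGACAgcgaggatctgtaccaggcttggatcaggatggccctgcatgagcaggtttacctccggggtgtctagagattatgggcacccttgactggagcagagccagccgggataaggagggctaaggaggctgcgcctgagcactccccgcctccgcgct
Matches with at most 3 mismatches occurred in 24.6% of all promoters and with at most 4 in 79.8%, against 10 and 22 of the 25 promoters here.

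Bdh1 was the single gene of the 28 that passed the threshold in any comparison. High-fat livers read 11.64, 11.79 and 11.47, whereas chow livers read 10.90, 10.75 and 10.97. The HDAC6 knockout arrays read 11.02, 10.95 and 11.05, and the HDAC9 knockout arrays 11.27, 10.80 and 10.82. All 3 high-fat values thus lay above all 9 others, and the values of the other 3 groups overlapped. In order of group means, high-fat livers came first, at 11.63 ± 0.161 (SD, n = 3), followed by HDAC6 knockout (11.01 ± 0.049), HDAC9 knockout (10.96 ± 0.265) and chow livers (10.87 ± 0.111). The differences among these last 3 did not pass.

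Bdh1 rose 1.69-fold on the high-fat diet against chow (log2 difference 0.76, SE 0.123, 95% interval 0.496 to 1.02, limma adjusted p = 0.0158). It was 1 of 28 listed genes called in that comparison, where 0.290% of all genes were called in either direction and 0.226% were called higher. Against the HDAC9 knockout livers Bdh1 was higher by 0.67 (SE 0.123, limma adjusted p = 0.0309), and against the HDAC6 knockout livers the difference was 0.63 and did not pass (SE 0.123, limma adjusted p = 0.0572). In those comparisons 0.436% (0.266% higher) and 0.145% of all genes were called. The 3 comparisons share the high-fat arrays and are not independent. A test for any difference among the 4 groups, with no group as reference, also called Bdh1 alone of the 28 (limma moderated F, adjusted p = 0.0331) and 0.331% of all genes.

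The size of the Bdh1 difference from chow ran from 0.68 to 0.84 as single arrays were left out, but the call was lost without any 1 of 4 arrays. Adjusted p was 0.0610 without high-fat replicate 1, 0.106 without high-fat replicate 2, 0.0572 without chow replicate 1 and 0.0767 without chow replicate 2. The difference from the HDAC9 knockout was lost without any 1 high-fat array, HDAC9 knockout replicate 2 or 3, or HDAC6 knockout replicate 2 (adjusted p from 0.0553 to 0.119). That from the HDAC6 knockout passed without HDAC9 knockout replicate 1 or 2 (adjusted p = 0.0142 and 0.0429).

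A second probe set of Bdh1, with a lower signal, read 8.14, 8.55 and 8.41 in high-fat livers, against 7.74, 6.74 and 8.12 in chow livers. The HDAC6 knockout arrays read 7.90, 7.55 and 7.49 there and the HDAC9 knockout arrays 8.08, 7.24 and 7.35. The high-fat arrays were again the 3 highest of 12, by a margin of 0.02 over the highest chow array. The log2 difference from chow was 0.83 with a wider SE of 0.289, and did not pass over all probe sets (limma adjusted p = 0.429). Without chow replicate 2, the lowest array, it was 0.43 (limma adjusted p = 0.770).

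**Figure D1:**
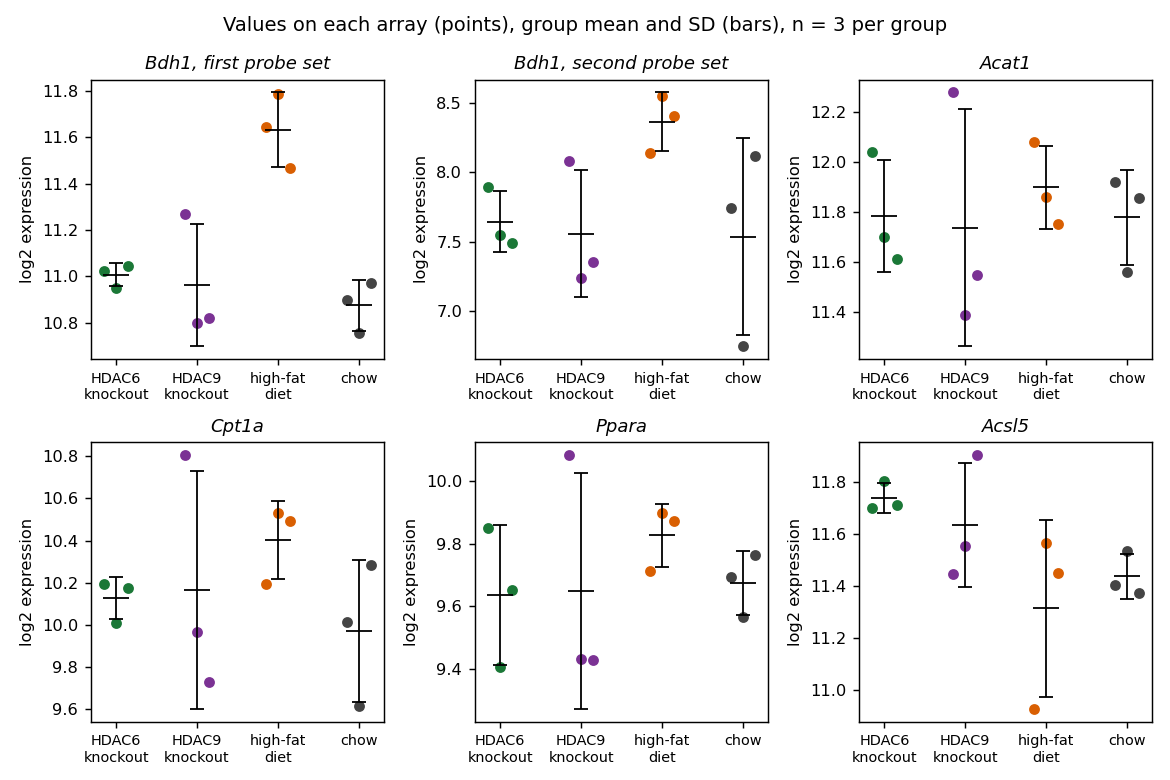
Log2 expression (y axis) of Bdh1 on both probe sets and of Acat1, Cpt1a, Ppara and Acsl5 in the 4 groups (x axis), with a point per array and bars for the group mean and SD (n = 3). The high-fat points of Bdh1 lie above all others on both probe sets, while in Acat1, Cpt1a and Ppara the highest point belongs to HDAC9 knockout replicate 1.

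Clock genes were read on the same arrays. Of 11, none was called on the high-fat diet against chow (limma, lowest adjusted p = 0.0659). There 6 had an unadjusted p under 0.05 (54.5%), against 8.48% of all genes. Against the HDAC6 knockout none was called, and 6 were under 0.05 (54.5%), against 7.27% of all genes. Against the HDAC9 knockout 9 were (81.8%), against 8.10% of all genes. In that comparison 1 was called, where 0.436% of all genes were. This was Nfil3, a repressor of the clock's output genes, which was lower (log2 difference -1.43, SE 0.246, limma adjusted p = 0.0243). A clock score was formed from 11 genes by subtracting the mean of Arntl, Clock, Cry1, Nfil3 and Npas2 from the mean of Per3, Nr1d2, Nr1d1, Hlf, Tef and Dbp. It was 1.76, 1.63 and 2.79 on the high-fat arrays. On chow arrays it was -0.68, 1.44 and -0.07, on HDAC6 knockout arrays -0.72, -0.04 and 1.60, and on HDAC9 knockout arrays -0.52, 0.83 and -1.23. Every high-fat score lay above every other score, but narrowly. The lowest, 1.63, was close to 1.60 on HDAC6 knockout replicate 3, and chow replicate 2 stood at 1.44. Score and diet still ran together, and the part of the clock in the Bdh1 difference cannot be told apart from that of diet. With the score as a covariate the Bdh1 difference from chow was 0.86 and no longer passed (limma adjusted p = 0.0681).

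Acat1, the thiolase that joins acetyl-CoA units to acetoacetyl-CoA at the entry to ketone body synthesis, did not pass. It read 12.08, 11.86 and 11.75 on the high-fat arrays, 11.92, 11.56 and 11.85 on chow, 12.04, 11.70 and 11.61 on HDAC6 knockout and 12.28, 11.39 and 11.55 on HDAC9 knockout arrays. The 4 groups overlapped, and the high-fat difference from chow was 0.12 (95% interval -0.288 to 0.527). It was 0.01 without chow replicate 2, 0.03 without high-fat replicate 1, and 0.19 without chow replicate 1 or high-fat replicate 3. The highest and the lowest Acat1 values of the 12 arrays both belonged to the HDAC9 knockout group.

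In the activation step, Acsl5, an acyl-CoA synthetase abundant in liver, read 11.70, 11.81 and 11.71 on HDAC6 knockout arrays and 11.40, 11.54 and 11.37 on chow arrays. It read 10.93, 11.57 and 11.45 on high-fat arrays and 11.45, 11.55 and 11.90 on HDAC9 knockout arrays. The HDAC6 knockout arrays lay above the chow and the high-fat arrays without overlap. The difference from chow was 0.30 (SE 0.147, limma adjusted p = 0.865), and that of high-fat from HDAC6 knockout livers was -0.43 (SE 0.147, limma adjusted p = 0.459, unadjusted p = 0.0115). Neither passed, and the second was -0.23 without high-fat replicate 1, the lowest array.

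Acsl4, the synthetase that prefers arachidonate, read 8.04, 8.34 and 8.43 on high-fat arrays, below all chow arrays at 8.57, 8.49 and 8.45. The HDAC6 knockout arrays read 8.48, 8.56 and 8.13 and the HDAC9 knockout arrays 8.02, 8.26 and 8.61, overlapping both. The high-fat difference from chow, -0.23, did not pass (SE 0.154, limma adjusted p = 0.728) and was -0.12 without high-fat replicate 1. Other Acsl4 probe sets, with lower signals, gave -0.10 and -0.64, and neither passed (limma adjusted p = 0.947 and 0.5645). On the set with -0.10, chow arrays read 7.45, 5.92 and 7.10 and high-fat arrays 6.53, 6.82 and 6.82. Chow replicate 2 lay below the high-fat arrays and the other chow arrays above them, so that small difference rests on chow replicate 2.

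The carnitine shuttle begins with Cpt1a, the rate-controlling enzyme of mitochondrial fatty acid entry. Cpt1a read 10.19, 10.53 and 10.49 on high-fat arrays and 10.02, 9.62 and 10.29 on chow arrays. HDAC6 knockout arrays read 10.19, 10.01 and 10.18, and HDAC9 knockout arrays 10.81, 9.97 and 9.73. The high-fat arrays were higher on average than chow by 0.43, but overlapped them, and the difference did not pass (SE 0.223, 95% interval -0.046 to 0.910, limma adjusted p = 0.630). It was 0.25 without chow replicate 2. On other Cpt1a probe sets, with lower signals, the difference was 0.215 and 0.210. Cpt1a had the largest within-group SD of the 28 genes, 0.346, and the HDAC9 knockout group alone spanned nearly its whole range.

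Crat, which makes acetylcarnitine and other short-chain carnitine esters, read 7.93, 7.24 and 7.84 on HDAC9 knockout arrays and 7.82, 7.18 and 7.10 on HDAC6 knockout arrays. It read 7.49, 7.62 and 7.22 on high-fat and 7.41, 7.25 and 7.66 on chow arrays, so all groups overlapped. Cpt2, the carrier Slc25a20 and the peroxisomal Crot had group means that differed by 0.18, 0.08 and 0.15. Cpt2 rebuilds acyl-CoA inside the mitochondrion, Slc25a20 carries the carnitine esters across the inner membrane, and Crot sends chain-shortened acids out of peroxisomes. No shuttle gene passed in any of the 6 comparisons.

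Of the acyl-CoA dehydrogenases, which start each round of oxidation, the short-chain enzyme gene Acads differed most between group means. Acads read 9.56, 9.10 and 9.64 on chow arrays, 9.63, 9.60 and 9.75 on HDAC6 knockout, 9.89, 9.69 and 9.61 on HDAC9 knockout and 9.61, 9.73 and 9.65 on high-fat arrays. Chow replicate 2 was far below the other 11 arrays. The HDAC9 knockout difference from chow was 0.29 (SE 0.128, limma adjusted p = 0.787, unadjusted p = 0.0373), and 0.13 without chow replicate 2. Acadsb, which oxidises the branched acyl-CoA from isoleucine, had 62.8% of its variance between groups, with HDAC9 knockout and high-fat arrays all below the chow arrays. Its differences were small, -0.17 and -0.15, did not pass (limma adjusted p = 0.831 and 0.690), and came from a probe set whose suffix marks probes shared with other sequences. The medium-, long- and very-long-chain dehydrogenase genes Acadm, Acadl and Acadvl had group means within 0.10, 0.08 and 0.18 of each other.

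Hadha and Hadhb encode the subunits of the trifunctional protein, which carries out the remaining steps on long chains. Hadha read 10.46, 10.14 and 10.42 on HDAC6 knockout, 10.67, 10.48 and 10.55 on HDAC9 knockout, 10.45, 10.65 and 10.41 on high-fat and 10.64, 9.94 and 10.46 on chow arrays. Its HDAC9 knockout arrays all lay above its HDAC6 knockout arrays, by 0.23 on average, without passing (SE 0.151, limma adjusted p = 1.00), and by 0.13 without HDAC6 knockout replicate 2. Hadhb ran from 10.72 to 11.10. Both genes were highest on HDAC9 knockout replicate 1 and lowest on chow replicate 2. In the RefSeq table they lie head to head on opposite strands with 272 bases between their starts, so 1 stretch is upstream of both. The 250 bases next to the Hadhb start are shown because this pair shares them.
Hadhb upstream (chr5:30155003-30155252, plus strand): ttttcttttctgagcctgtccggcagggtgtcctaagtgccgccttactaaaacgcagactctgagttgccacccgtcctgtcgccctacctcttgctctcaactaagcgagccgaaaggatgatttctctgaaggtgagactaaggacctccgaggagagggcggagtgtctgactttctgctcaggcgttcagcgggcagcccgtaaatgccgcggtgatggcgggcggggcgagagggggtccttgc
No capitals are used in this stretch, whose best partial match to the repeat had 4 mismatches.

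Hadh and Acaa2, the dehydrogenase and thiolase for shorter chains, were among the steadiest on the probe sets used, with ranges over the 12 arrays of 0.26 and 0.28. Both sets carry suffixes that mark shared probes, and other probe sets were less steady. Another Acaa2 set ran from 7.79 on chow replicate 2 to 10.49 on HDAC9 knockout replicate 1. Another Hadh set ran from 11.63 to 12.13 on the same arrays. The auxiliary enzymes for unsaturated fatty acids, Eci1, Eci2, Decr1 and Ech1, were each highest on HDAC9 knockout replicate 1, and Eci2 had group means only 0.04 apart. The electron carriers Etfa, Etfb and Etfdh, which pass electrons from the dehydrogenases to ubiquinone, had within-group SDs of 0.077, 0.121 and 0.200. Etfb was the one oxidation gene with its highest value on a high-fat array, replicate 1, at 11.71.

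Of the peroxisomal genes, Acox2, an oxidase of branched acids and bile acid precursors, read 10.07, 10.07 and 10.01 on HDAC6 knockout arrays and 9.66, 9.83 and 9.93 on high-fat arrays. It read 10.30, 9.53 and 9.66 on HDAC9 knockout and 10.002, 9.58 and 10.14 on chow arrays. The high-fat arrays lay below the HDAC6 knockout arrays without overlap, with a mean difference of -0.24 that did not pass (SE 0.175, limma adjusted p = 0.860). Hsd17b4, a multifunctional enzyme of peroxisomal oxidation, ran from 10.55 to 11.10, and its groups overlapped.

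Ppara read 9.85, 9.41 and 9.65 on HDAC6 knockout, 10.08, 9.43 and 9.43 on HDAC9 knockout, 9.71, 9.90 and 9.87 on high-fat and 9.69, 9.57 and 9.77 on chow arrays. The groups overlapped, and the high-fat difference from chow was 0.15 (SE 0.159, limma adjusted p = 0.839), and 0.10 without chow replicate 2.

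**Figure D2:**
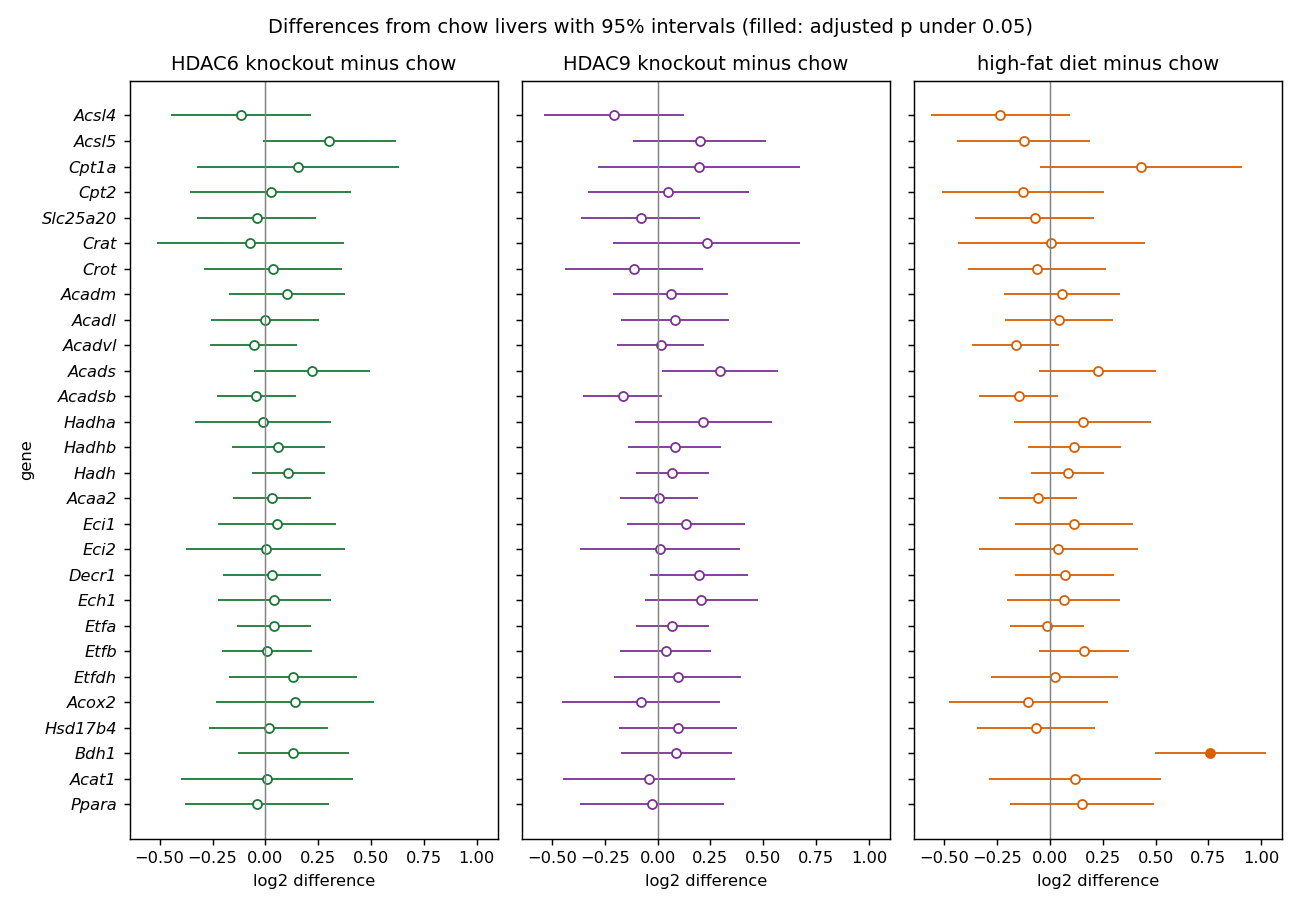
Log2 differences (x axis) of the 28 genes (y axis) between each of 3 groups and chow livers, with 95% intervals from limma, filled where the adjusted p was under 0.05. Bdh1 on the high-fat diet, at 0.76, is the single filled point, and of the open points only Acads in the HDAC9 knockout has an interval clear of 0.

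In the HDAC6 knockout livers 0 of the 28 genes passed against chow (limma), with 0 at an unadjusted p under 0.05, where 0.0161% and 5.77% of all genes did so. Group means were higher than in chow for 20 genes and lower for 8, with a median log2 difference of 0.03, against -0.01 over all genes. Without HDAC6 knockout replicate 1 the count was 12 higher and 16 lower (median -0.03), without its replicate 3 it was 26 and 2 (median 0.07), and without chow replicate 2 it was 10 and 18 (median -0.02). The differences ran from -0.12 for Acsl4 to 0.30 for Acsl5. The arrays failed to overlap for 1 gene, Acsl5, as for 10.1% of all genes. The 95% intervals of the 27 genes other than Bdh1 lay between -0.512 for Crat and 0.632 for Cpt1a. Falls of over 1.43-fold and rises of over 1.55-fold lay outside each gene's interval. The intervals hold gene by gene, are not adjusted for the number of genes, and do not cover the 27 jointly at 95%.

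In the HDAC9 knockout livers 0 of 28 passed against chow (limma), where 0.0968% of all genes did, and 1 gene, Acads, had an unadjusted p under 0.05, as 6.08% of all genes did. Group means were higher for 21 genes and lower for 7 (median 0.07, against -0.01 over all genes), and the arrays failed to overlap for Acadsb alone, as for 12.6% of all genes. The direction changed with single arrays. Without HDAC9 knockout replicate 1 the count was 10 higher and 18 lower (median -0.06), without replicate 2 it was 25 and 3 (median 0.14), and without chow replicate 2 it was 15 and 13 (median 0.01). The 2 knockouts were also set against each other. There 0 of 28 passed (limma), with 0 at an unadjusted p under 0.05, where 0.00807% and 3.80% of all genes did so. In that comparison 16 genes were higher in the HDAC9 knockout and 12 lower (median 0.02), and the arrays failed to overlap for Hadha alone, as for 8.46% of all genes. Without HDAC9 knockout replicate 1 the count was 5 and 23 (median -0.09), without its replicate 2 it was 22 and 6 (median 0.09), and without HDAC6 knockout replicate 2 it was 12 and 16 (median -0.02).

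On the high-fat diet 17 genes had higher means than in chow livers and 11 lower (median 0.04, against -0.01 over all genes). The count was 14 and 14 without chow replicate 2 (median -0.01) or replicate 1 (median 0.01), and 20 and 8 without chow replicate 3 (median 0.11). With the clock score as a covariate the median was 0.17. Markers of Kupffer cells and macrophages were higher in this comparison for 11 of 11 genes (median 0.35), 6 of them at an unadjusted p under 0.05 where 8.48% of all genes were, and none was called (limma, lowest adjusted p = 0.0930). Their array medians ran from -0.01 to 0.30 on the high-fat diet and from -0.40 to -0.07 in chow livers, and no marker's mean was below 6.16 in chow livers. They were also higher for 11 of 11 in the HDAC9 knockout (median 0.32) and for 10 of 11 in the HDAC6 knockout (median 0.25). Their part in the results was not tested. Besides Bdh1, the arrays failed to overlap for Acsl4 and Acadsb, both lower, where 14.7% of all genes did not overlap. For the 27 genes other than Bdh1 the lowest adjusted p was 0.630 (limma). Their 95% intervals, again gene by gene and unadjusted, lay between -0.563 for Acsl4 and 0.910 for Cpt1a, or from 1.48-fold lower to 1.88-fold higher. Against the HDAC6 knockout 14 genes were higher and 14 lower on the high-fat diet. The count was 16 and 12 without HDAC6 knockout replicate 1, and 10 and 18 without its replicate 2. With all arrays, Bdh1 and Acsl5 had an unadjusted p under 0.05 in this comparison (limma), as 7.27% of all genes did. The arrays failed to overlap for Bdh1, Etfb, Acsl5, Acadsb and Acox2, as for 13.1% of all genes. Against the HDAC9 knockout 11 genes were higher and 17 lower, 18 and 10 without HDAC9 knockout replicate 1, and 7 and 21 without its replicate 2 or 3. Bdh1 and Acsl5 again had an unadjusted p under 0.05 (limma), as 8.10% of all genes did, and Bdh1 alone did not overlap, as 13.8% of all genes did not.

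Apart from Bdh1 and Acadsb, the 28 genes had more of their variance within groups than between them. The share of a gene's variance that lay between the 4 groups had a median of 16.8% over the 28 genes, against 26.5% over all genes, and was below that all-gene median for 21 of 28. It was lowest for Eci2, at 0.53%, and highest for Bdh1, at 83.0%. The median within-group SD was 0.180, against 0.152 over all genes.

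HDAC9 knockout replicate 1 stood out. It held the highest of the 12 values for 21 of the 28 genes, where it held the highest for 4.69% of all genes measured. Cpt1a, Acadm, Eci2, Acat1 and Ppara were among the 21. The genes' median deviation from their own means over the 12 arrays was 0.28 there, and -0.11 and -0.05 on the other HDAC9 knockout arrays. By step, the shuttle stood at 0.34, oxidation at 0.26 and the 2 ketone body genes at 0.31 on that array, and activation at -0.21. Acsl4 was the single gene at its lowest there. The median over all genes was 0.00 on this array, the hepatocyte markers were at 0.00, the pancreas markers at 0.10 and the Kupffer cell and macrophage markers at 0.13. The part of these in the result was not tested.

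HDAC6 knockout replicate 1 and chow replicate 3 were high in the same way but less so. On the former, 27 of 28 genes lay above their own mean (median 0.11), and on the latter 22 of 28 (median 0.07). High-fat replicate 2 had 21 of 28 above (median 0.05). Chow replicate 2 was the lowest of the 12 for 10 of the 28 genes, among them Cpt1a, Hadha, Acads and Bdh1 (median -0.13), although 58.6% of all genes lay above their mean on it.

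**Figure D3:**
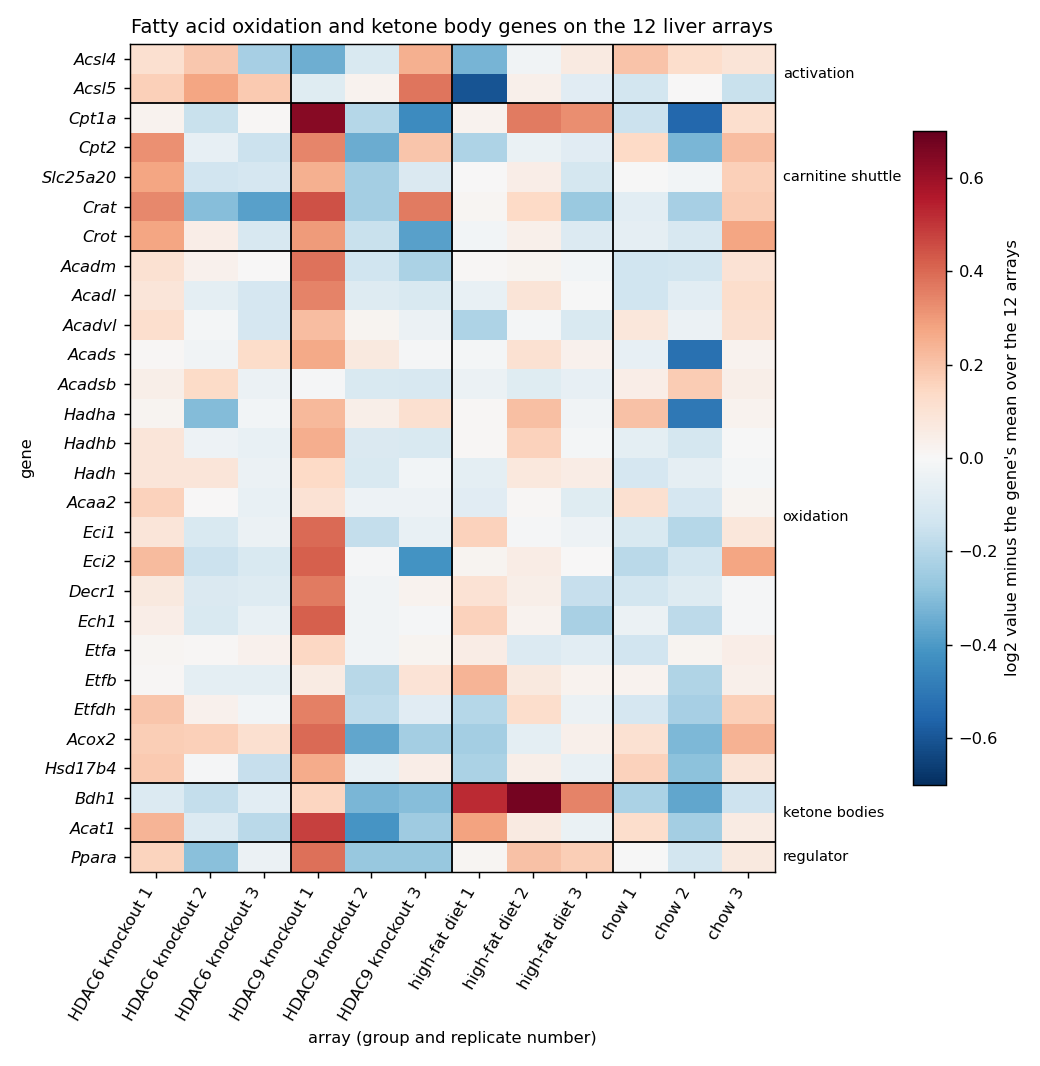
Heat map of the 28 genes (rows, by step) on the 12 arrays (columns, by group and replicate), coloured by log2 value minus the gene's mean over the 12 arrays, red above and blue below. The column of HDAC9 knockout replicate 1 is red in 25 of 28 rows, and the Bdh1 row is red on the 3 high-fat arrays.

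Inducible targets of PPARα stood high on the same arrays. The 15 measured genes of that list had medians of 0.37 on HDAC6 knockout replicate 1, 0.36 on HDAC9 knockout replicate 1 and 0.26 on chow replicate 3, while the remaining 9 arrays stood at 0.06 or lower. None of the 15 was called in any of the 6 comparisons (limma). Against chow 8 had higher and 7 lower means on the high-fat diet (median 0.01), and 4 of them had an unadjusted p under 0.05, where 8.48% of all genes did. Pdk4, a kinase that holds back glucose oxidation, differed by -1.18 from chow and by -1.99 from HDAC6 knockout livers, without passing (SE 0.386, limma adjusted p = 0.344 and 0.0572). Pdk4 read 6.22, 6.52 and 5.79 on the high-fat arrays, below all 9 others. Cyp4a14, a fatty acid hydroxylase, differed by -0.97 from chow livers, also without passing (SE 0.257, limma adjusted p = 0.212). Cyp4a31, of the same family, differed by -0.77 (SE 0.318, limma adjusted p = 0.507). Aldh3a2, a fatty aldehyde dehydrogenase and the fourth of these genes, differed by 0.41 in the other direction (SE 0.181, limma adjusted p = 0.552). Fgf21, a fasting hormone, averaged 5.86 ± 0.306 on the high-fat diet and 5.48 ± 0.272 in chow livers (SD, n = 3 each). Pdk4, Cyp4a14, Cyp4a31 and Aldh3a2 were chosen after their values were seen.

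**Figure D4:**
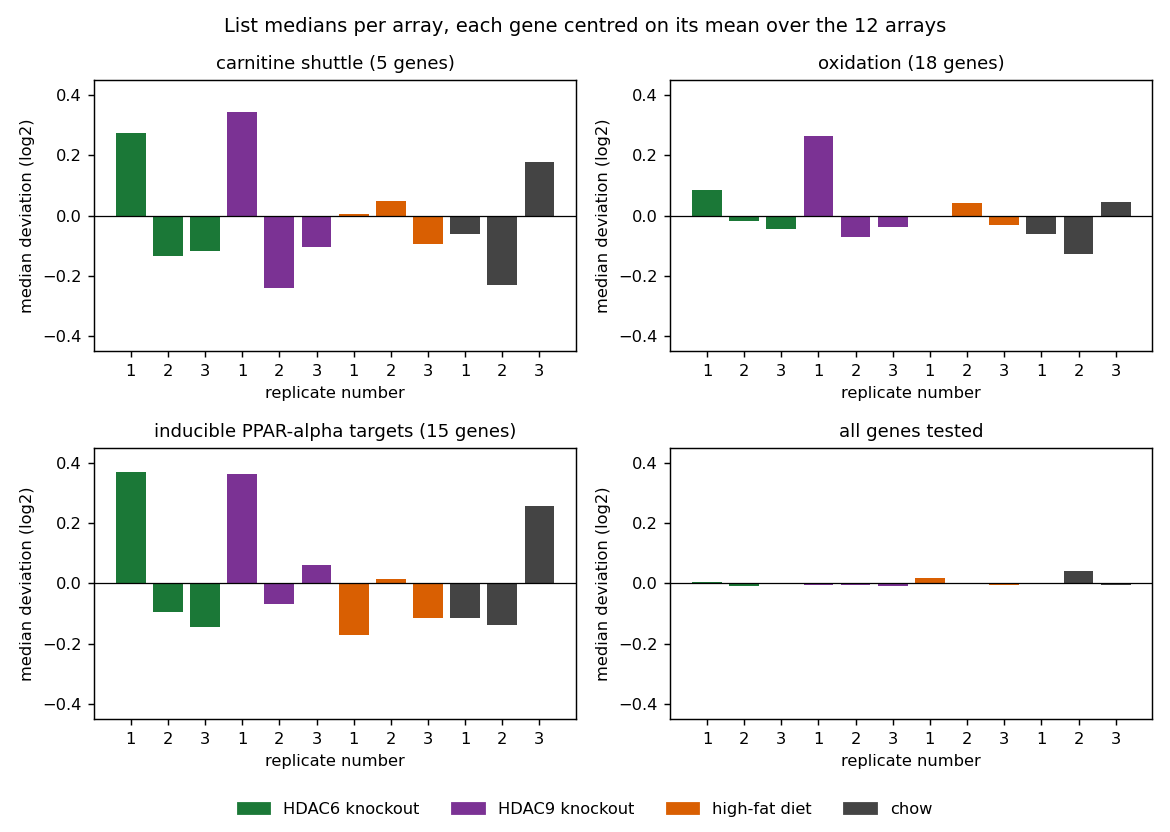
Median deviation (log2, y axis) of the carnitine shuttle, oxidation, inducible PPARα target and all measured genes on each array (x axis, replicate number, coloured by group), with each gene centred on its mean over the 12 arrays. Replicate 1 of both knockouts, chow replicate 3 and, by at most 0.0478, high-fat replicate 2 stand above 0 in the first 3 panels. The bars of all genes reach at most 0.0426.

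The wider pathway was read from a list of 56 other genes of fatty acid oxidation, transport and its control, of which 45 were measured. None was called in any of the 6 comparisons (limma). Between 2 and 7 of them had an unadjusted p under 0.05 per comparison, or 4.44% to 15.6%, against 3.80% to 8.48% of all genes, and the medians of their log2 differences ran from -0.07 to 0.06. Acad9, a dehydrogenase that also assembles respiratory complex I, was higher than in chow livers by 0.47 in the HDAC6 knockout and by 0.46 in the HDAC9 knockout, comparisons that share the chow arrays (SE 0.108, limma adjusted p = 0.317 and 0.230). Pecr, a peroxisomal enoyl-CoA reductase, was higher by 0.31 on the high-fat diet (SE 0.081, limma adjusted p = 0.211). Slc16a1, a carrier of lactate and ketone bodies, differed there by -0.45 (SE 0.200, limma adjusted p = 0.555), with its 3 high-fat arrays below all chow arrays. These 3 genes did not pass and were chosen after their values were seen.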

How the data were processed

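The deposited table held log2 expression per probe set for 12 arrays, made by the authors with RMA (robust multi-array average) per the submitters' processing notes. Software and chip definition are not given in the sources used here. Per the labels, 100 ng of RNA was amplified and biotin-labelled. Of 22626 probe sets, 20380 had 1 gene symbol in the platform annotation (691 several, 1555 none), and the 1 with the highest mean stood for a gene. Array medians lay between 5.78 and 5.86, values from 1.925 to 14.248, and no array was dropped. R 4.3.3 and limma 3.58.1 fitted 4 group means over 12 arrays with a mean-variance trend, two-sided, with Benjamini-Hochberg adjustment over 12393 genes and a threshold of 0.05. The number of arrays limits precision: the median SE of a difference was 0.124, with 14.32 degrees of freedom. The fit was tested on simulated data. Named were all listed genes, with array values for those called, the 2 per step with the widest group means and Cpt1a, Hadha, Bdh1, Acat1 and Ppara, from the other pathway and PPARα target lists those called and Fgf21, and Hdac6 and Hdac9. Others are said to be chosen after their values were seen, as was Nfil3. Removing single arrays for each gene's difference was added after seeing the data. The genes and lists were chosen with earlier results of these data known. Alternatives were 13 settings and 12 single-array removals. Figures used Python 3.11.15 and matplotlib 3.10.9.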

Additional observations from a re-analysis of the deposited data

How the results depend on the processing

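The call of Bdh1 is the count that moved. The number of listed genes called on the high-fat diet against chow went from 1 to 0 with the mean of all probe sets, the clock score as a covariate or an adjusted p under 0.01. Against the HDAC9 knockout it went from 1 to 0 under the same 3 and in a fit of only the 2 groups, and against the HDAC6 knockout from 0 to 1 with a robust prior or only the 2 groups. For the test among the 4 groups it went from 1 to 0 under those first 3 and without a variance trend. Leaving out single arrays gave 0 to 1 in each of these 4, and for the last it was 0 without any 1 HDAC6 knockout or high-fat array, HDAC9 knockout replicate 3 or chow replicate 1 or 2. Over all alternatives and removals the Bdh1 difference kept its sign, from 0.68 to 0.86 against chow, with adjusted p from 0.00288 to 0.196. In the other 3 comparisons the count was 0 under every alternative and removal.

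With the clock score the median difference of the 28 genes on the high-fat diet became 0.17 against chow (from 0.04), 0.12 against the HDAC6 knockout (from -0.01) and 0.14 against the HDAC9 knockout (from -0.03). Single removals moved the HDAC9 knockout median against chow between -0.0623 and 0.14. Counts over all genes moved too. Under the other settings they ran from 1 to 3 (HDAC6 knockout against chow, 2 here), 0 to 18 (HDAC9 knockout, 12), 6 to 36 (high-fat, 36), 1 to 2 (between knockouts, 1), 11 to 56 (high-fat against HDAC6 knockout, 18) and 7 to 68 (against HDAC9 knockout, 54). Quantile normalization or median centring moved the all-gene median by at most 0.0204. The causes were not tested.

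The groups share replicate numbers. Of 18 same-numbered pairs, 4 had deviations correlated above 0.1 over genes (range -0.152 to 0.148). Differently numbered pairs were not read, so this check cannot tell whether same-numbered samples share a batch. With the replicate block the count was 1 on the high-fat diet against chow, and Bdh1 had adjusted p = 0.0213. No count of the listed genes changed with it.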
